A study of Mus musculus with 12 samples.

Results

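Secretoglobins and cysteine-rich secretory proteins are abundant products of the mouse submandibular gland (SMG). The genes described here are 5 secretoglobin genes of the androgen-binding protein family (Scgb1b27, Scgb2b27, Scgb2b26, Scgb1b24 and Scgb2b24) and 2 Crisp genes (Crisp1 and Crisp3). They were taken by symbol from the 56065 genes of the deposited count table, and all 7 had a row. The choice was made with earlier results of these data known, so shares over all tested genes are background and not a test. After the filter on low counts 17893 genes were tested, among them 6 of the 7. Scgb1b24 did not pass.

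Bulk RNA was sequenced from whole SMGs of 12 mice aged 8 weeks, in 4 groups of 3. Wild-type females and wild-type males were C57BL/6J. The knockouts were females and males of the strain C57BL/6J-Pou2f3em1Cbwi/J, written here as Pou2f3-/-, which lack functional Pou2f3 in the whole body and therefore lack tuft cells, chemosensory epithelial cells that depend on this transcription factor. All mice came from the Jackson Laboratory, and no source used here states that the genotypes were littermates, so that genotype and colony cannot be told apart. The comparisons asked how the genes differed between genotypes within each sex and between the sexes within each genotype.

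Androgen-binding proteins are salivary dimers in which an alpha subunit, encoded by an Scgb1b gene, is joined by disulphide bridges to a beta or gamma subunit, encoded by an Scgb2b gene. They coat the pelt during grooming and are known for their part in mate recognition between mouse populations. Crisp1 and Crisp3 encode secreted proteins with a CAP domain followed by a cysteine-rich domain. Both genes are known as androgen-dependent, Crisp1 mainly in the epididymis and Crisp3 mainly in the salivary gland. The granular convoluted tubules of this gland, which store growth factors and kallikreins, are larger in males.

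The libraries held 47031917 to 67881902 estimated counts. Levels are given as CPM (counts per 1e6 counts) after TMM scaling, a correction for library composition. The 3 wild-type female libraries stood apart in that scaling, with factors of 0.625 to 0.759 against 0.902 to 1.45 in the other libraries. Markers of serous acinar cells were all detected (10 of 10), as were those of granular convoluted tubules (9 of 9), and 4 of 4 epididymal markers had at most 3 counts in every library. Summed markers of the sublingual gland or mucous cells (8 genes, Muc5b at no more than 3 counts) were 6082 CPM in Pou2f3-/- female replicate 3 and 9149 CPM in wild-type male replicate 3, against 58.9 to 452 CPM in the other libraries. Pou2f3 itself was near 0 everywhere, with 0 to 10 counts in the 6 wild-type libraries (1, 0 and 2 in females, 1, 10 and 0 in males) and 0 to 3 counts in the 6 knockout libraries. These counts overlapped between genotypes and do not check the labels.

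The secretoglobin genes lie on chromosome 7 of GRCm39 within 285692 bases. Scgb1b27 (ENSMUSG00000066583.5, chr7:33720908-33722306, plus strand) and Scgb2b27 (ENSMUSG00000066584.11, chr7:33711346-33713367, minus strand) lie head to head with 7540 bases between them. Scgb1b24 (ENSMUSG00000078753.4, chr7:33443224-33444407, plus strand) and Scgb2b24 (ENSMUSG00000046438.6, chr7:33436615-33438737, minus strand) have the same arrangement with 4486 bases between them. Scgb2b26 (ENSMUSG00000066586.4, chr7:33642427-33644465, minus strand) lies between these pairs, and the canonical transcript of each secretoglobin gene has 3 exons. Crisp1 (ENSMUSG00000025431.5, chr17:40604649-40739170) and Crisp3 (ENSMUSG00000025433.8, chr17:40532668-40553179) lie on the minus strand of chromosome 17, 51469 bases apart, and their canonical transcripts have 8 exons each.

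The sequences before the starts of Crisp1 and Crisp3 are shown because these genes moved together between the sexes although their levels differed widely. The 250 bases before each start, from the RefSeq promoter table for GRCm38.p6 and matched without a mismatch to the minus strand of GRCm39, were identical at 239 of 250 positions (95.6%). The Crisp1 window precedes the start of the canonical transcript (40630098) and lies inside the annotated gene, because another transcript of Crisp1 starts further upstream, at 40739170. Capitals mark the positions that differ.
Crisp1, chr17:40630099-40630348: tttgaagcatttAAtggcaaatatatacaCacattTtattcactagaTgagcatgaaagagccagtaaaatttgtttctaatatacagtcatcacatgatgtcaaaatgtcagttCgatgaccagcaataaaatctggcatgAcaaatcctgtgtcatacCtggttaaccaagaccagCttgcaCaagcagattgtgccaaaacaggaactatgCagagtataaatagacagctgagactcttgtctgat
Crisp3, chr17:40553180-40553429: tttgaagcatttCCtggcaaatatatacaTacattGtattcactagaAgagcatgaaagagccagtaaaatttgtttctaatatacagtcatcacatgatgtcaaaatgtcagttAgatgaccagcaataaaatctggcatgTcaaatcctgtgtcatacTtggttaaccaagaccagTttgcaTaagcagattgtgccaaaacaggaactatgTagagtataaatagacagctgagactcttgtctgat

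The windows of all 7 genes (250 bases before to 50 after the start) were searched on both strands for TGTTCT, the core of a response element shared by several steroid hormones (AGAACA on the other strand), and for the full palindromic element, in which these letters follow their reverse complement after 3 bases. The core was found in 2 of 7 genes, at position −193 of Scgb2b24 and, as AGAACA, at position 21 after the start of Crisp1. It was found in 21.3% of the 27025 genes and 19.0% of the 32851 windows of the table. The palindrome was in 0 of 7, and in 3 of all windows (0.00913%). Such matches only describe the letters in these windows. The stretch around the core of Scgb2b24 is shown with the aligned stretches of Scgb2b26 and Scgb2b27, the minus strand of GRCm39 in each case. Scgb2b24 was identical with Scgb2b26 in 89.3% and with Scgb2b27 in 88.8% of the aligned positions. Capitals mark the core of Scgb2b24 and the letters aligned with it.
Scgb2b24, chr7:33438844-33438963: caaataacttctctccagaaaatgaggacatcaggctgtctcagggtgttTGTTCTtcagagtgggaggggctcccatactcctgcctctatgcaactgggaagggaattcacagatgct
Scgb2b26, chr7:33644519-33644631: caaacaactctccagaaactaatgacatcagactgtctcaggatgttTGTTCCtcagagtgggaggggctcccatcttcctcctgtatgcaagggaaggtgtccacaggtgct
Scgb2b27, chr7:33713411-33713518: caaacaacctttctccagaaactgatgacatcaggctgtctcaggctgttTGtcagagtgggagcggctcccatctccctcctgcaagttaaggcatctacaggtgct

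The 3 abundant secretoglobins were lower in males than in females in both genotypes, and both Crisp genes were far higher. In wild-type glands the male level was 3.50-fold lower for Scgb1b27, 3.70-fold lower for Scgb2b27 and 5.22-fold lower for Scgb2b26, and it was 35.1-fold higher for Crisp3 and 299-fold higher for Crisp1. These 5 genes passed the test in both genotypes, where 36.5% of all tested genes were called in wild type (20.5% higher and 16.0% lower in males) and 43.5% in Pou2f3-/- (23.2% higher and 20.3% lower). Calls in the same direction in both genotypes were made for 18.1% of all tested genes. Values of males and females did not overlap for any of the 5 genes in either genotype, as was the case for 47.6% of all tested genes in wild type and 54.8% in Pou2f3-/-. Scgb2b24 is described apart, because it passed the filter on low counts through the female libraries only. On library totals without TMM, where the median of all tested genes was 0.95 in this comparison in wild type, the 3 abundant secretoglobins stood at −0.93, −1.003 and −1.49 on the log2 scale and were still called (edgeR, adjusted p = 0.0016, 1.8e-04 and 4.6e-05).

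**Figure D1:**
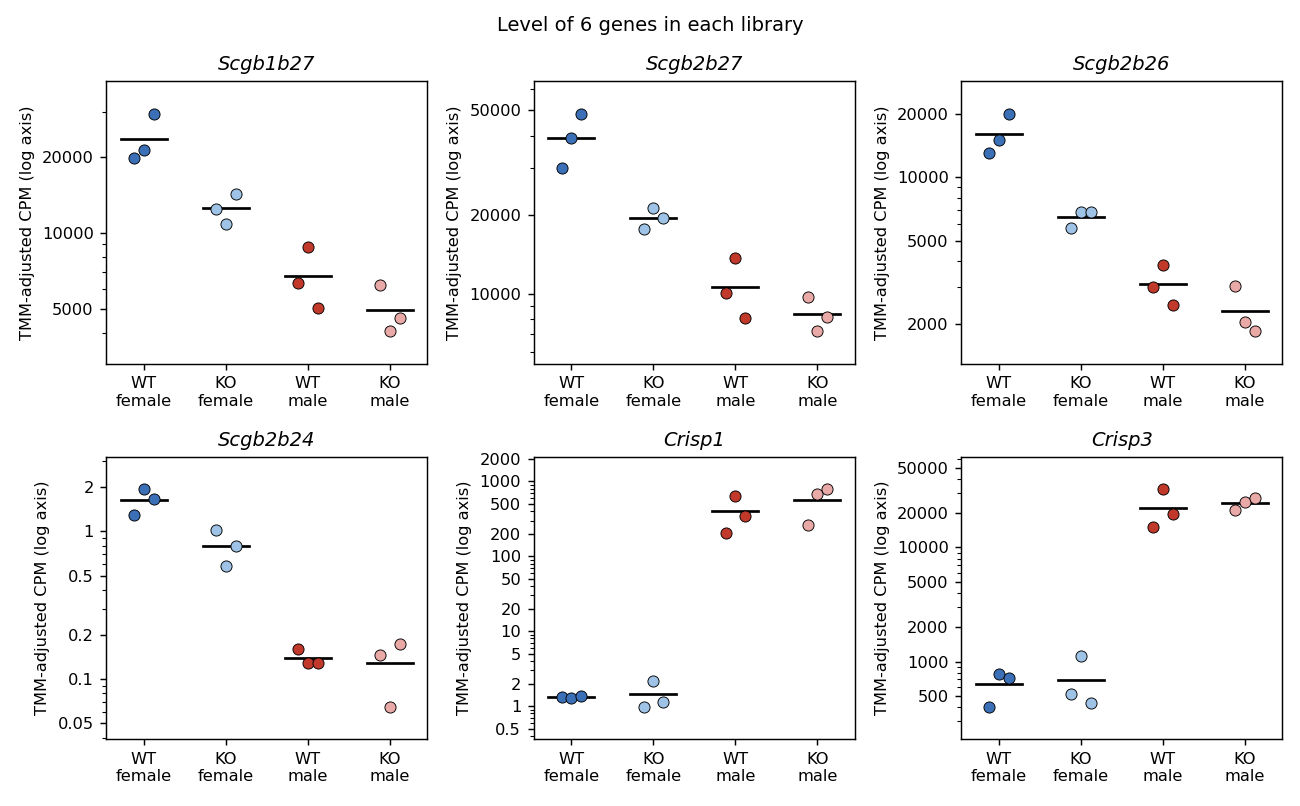
Level of the 6 tested genes in each library, as TMM-adjusted CPM on a log axis (a separate axis for each gene). Points are single mice, bars are group means, and KO stands for Pou2f3-/-. Secretoglobins stood highest in wild-type females (Scgb2b27 at 30060 to 48517 CPM), and Crisp1 and Crisp3 separated the sexes in both genotypes.

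Scgb1b27 encodes an alpha subunit. Its level was 19744, 21325 and 29660 CPM in wild-type females, and 12461, 10856 and 14277 CPM in Pou2f3-/- females. It was 6349, 8803 and 5031 CPM in wild-type males and 6215, 4077 and 4574 CPM in Pou2f3-/- males. All female libraries lay above all male libraries, and the female genotypes did not overlap, whereas the male genotypes did. By edgeR's quasi-likelihood test the male level was lower by a log2 fold change of −1.81 ± 0.25 (SE) in wild type (adjusted p = 1.2e-04) and −1.34 ± 0.25 in Pou2f3-/- (adjusted p = 9.2e-04).

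Scgb2b27 encodes a beta or gamma subunit and had the highest counts of the secretoglobins in every library. Its level was 30060, 39181 and 48517 CPM in wild-type females and 17691, 21230 and 19493 CPM in Pou2f3-/- females. In males it was 10083, 13670 and 8106 CPM in wild type and 9688, 7207 and 8152 CPM in Pou2f3-/-. As for Scgb1b27, the sexes were separate in both genotypes and the genotypes were separate in females only. The log2 fold change of males against females was −1.89 ± 0.24 in wild type (edgeR, adjusted p = 5.0e-05) and −1.22 ± 0.23 in Pou2f3-/- (adjusted p = 0.0011).

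Scgb2b26, which encodes another subunit of the same kind, was 13107, 15143 and 20151 CPM in wild-type females and 5747, 6824 and 6840 CPM in Pou2f3-/- females. It was 3008, 3804 and 2469 CPM in wild-type males and 3038, 2048 and 1849 CPM in Pou2f3-/- males. The order of the groups was the same as for the previous genes, again with overlap between male genotypes only. Males were lower by a log2 fold change of −2.38 ± 0.25 in wild type (edgeR, adjusted p = 9.9e-06) and −1.48 ± 0.24 in Pou2f3-/- (adjusted p = 3.2e-04).

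The other gene pair of the cluster was nearly silent by comparison. Scgb2b24 had 67, 86 and 64 counts in wild-type females and 51, 35 and 37 in Pou2f3-/- females. In males it had 12, 9 and 9 counts in wild type and 9, 4 and 11 in Pou2f3-/-. The fitted log2 fold change of males against females was −3.54 ± 0.38 in wild type and −2.62 ± 0.39 in Pou2f3-/-. It is given without a test, since a gene that reached the CPM minimum of the filter (0.182) in all 6 female but only 2 of 6 male libraries entered the test by being high in females. Its partner Scgb1b24 had 2, 0 and 0 counts in wild-type females, 0, 0 and 1 in Pou2f3-/- females and 0 in all 6 male libraries. In the male libraries the upper limit behind such a 0 is 3 counts, which corresponds to 0.0399 to 0.0486 CPM and covers counting error only. No difference in Scgb1b24 was detectable at this depth.

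The canonical transcripts of the secretoglobins are related, with 84.7% identical positions between Scgb2b27 and Scgb2b26, 81.6% between Scgb2b26 and Scgb2b24, 80.3% between Scgb2b27 and Scgb2b24 and 82.1% between Scgb1b27 and Scgb1b24. Reads from stretches that 2 genes share could be assigned to either of them. Of the 31-base words of the canonical transcripts, 20.7% of those of Scgb2b27, 11.8% of Scgb2b26, 8.86% of Scgb1b27 and 4.46% of Scgb2b24 also occur in a transcript of another gene. Scgb2b24 shares 17 words with Scgb2b27 and 14 with Scgb2b26, whose counts are larger by orders of magnitude. In parts per 1e6 counts of Scgb2b27 and Scgb2b26 together, Scgb2b24 made up 24.3 to 35.5 in wild-type females, 20.9 to 43.5 in Pou2f3-/- females, 7.32 to 12.2 in wild-type males and 7.01 to 17.3 in Pou2f3-/- males. The male values rest on 4 to 12 counts of Scgb2b24 in a library, and this gene passed the filter through females only. Whether shared reads take part in the Scgb2b24 values was not tested.

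Crisp1 was low in females and abundant in males. It had 1.30, 1.30 and 1.36 CPM in wild-type females (52 to 67 counts) and 0.979, 2.18 and 1.14 CPM in Pou2f3-/- females (49 to 130 counts). In males it was 207, 633 and 348 CPM in wild type and 259, 669 and 781 CPM in Pou2f3-/-. The log2 fold change of males against females was 8.23 ± 0.58 in wild type (edgeR, adjusted p = 4.3e-07) and 8.62 ± 0.59 in Pou2f3-/- (adjusted p = 4.2e-07).

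Crisp3 was already abundant in females, with 402, 778 and 722 CPM in wild type and 518, 1132 and 430 CPM in Pou2f3-/-. In males it was 15036, 32260 and 19513 CPM in wild type and 21370, 24835 and 27256 CPM in Pou2f3-/-. The lowest male library was thus far above the highest female library. The log2 fold change was 5.13 ± 0.45 in wild type (edgeR, adjusted p = 2.2e-06) and 5.14 ± 0.45 in Pou2f3-/- (adjusted p = 2.5e-06). Calls with an absolute log2 fold change of 5 or more, as for both Crisp genes in both genotypes, were made for 0.615% of all tested genes in wild type and 0.570% in Pou2f3-/-.

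The transcripts of Crisp1 and Crisp3 were identical in 91.3% of the aligned positions, and they share 142 of their 31-base words (10.2% of those of Crisp1). In wild-type females Crisp3 had 20689 to 34683 counts, and the part of shared reads in the low female Crisp1 counts was not tested.

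**Figure D2:**
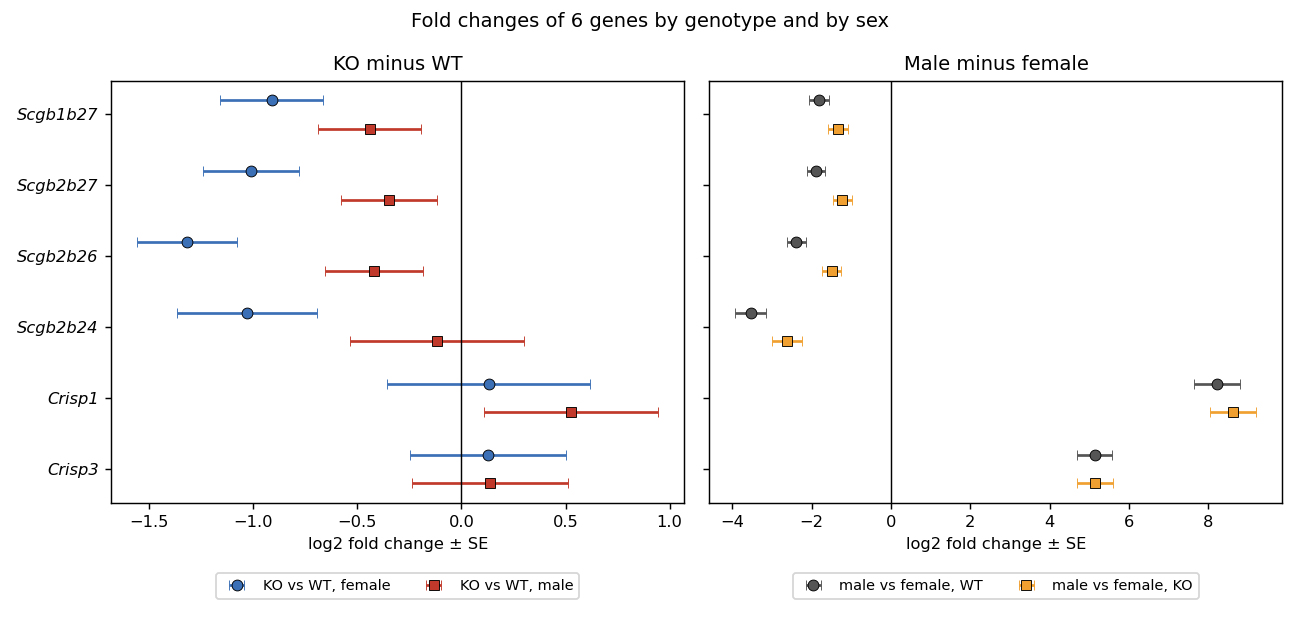
Log2 fold changes with SE (edgeR, 3 mice a group) for Pou2f3-/- (KO) against wild type (WT) in each sex on the left, and for male against female in each genotype on the right. The 4 secretoglobins lie below 0 in females on the left (−0.91 to −1.32), and on the right the Crisp genes lie at 5.13 to 8.62 while the secretoglobins lie at −1.22 to −3.54.

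In females the 4 tested secretoglobins were lower in Pou2f3-/- than in wild-type glands, and the Crisp genes were not called. Scgb2b26 differed most, 2.49-fold lower with a log2 fold change of −1.32 ± 0.24 (edgeR, adjusted p = 0.0013). Scgb2b27 was 2.02-fold lower (−1.01 ± 0.23, adjusted p = 0.0049) and Scgb1b27 was 1.88-fold lower (−0.91 ± 0.25, adjusted p = 0.012). Scgb2b24 was 2.04-fold lower (−1.03 ± 0.34, adjusted p = 0.029). Each was lower in all 3 knockout libraries than in any wild-type library. Of all tested genes, 36.9% were called in this comparison (19.3% lower and 17.6% higher in the knockout), and 49.3% had groups that did not overlap. The median log2 fold change was −1.02 over the 4 secretoglobins and 0.03 over all tested genes. For Crisp1 (0.13 ± 0.49, adjusted p = 0.86) and Crisp3 (0.13 ± 0.38, adjusted p = 0.82) the female genotypes overlapped.

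These female differences were larger after TMM scaling than on plain library totals. As a share of all counts in a library, Scgb2b26 held 0.995 to 1.26% in wild-type and 0.593 to 0.678% in Pou2f3-/- females, Scgb2b27 held 2.28 to 3.03% and 1.83 to 1.93%, and Scgb1b27 held 1.45 to 1.85% and 0.979 to 1.42%. With library totals only, Scgb2b26 (−0.80, edgeR, adjusted p = 0.0098) and Scgb2b27 (−0.49, adjusted p = 0.034) were still called, and Scgb1b27 (−0.38, adjusted p = 0.16) and Scgb2b24 (−0.50, adjusted p = 0.30) were not. Under that setting the median of all tested genes was 0.53 rather than 0.03. The call of Scgb2b24 was also lost when any one of replicates 2 and 3 of the wild-type or knockout females was left out (edgeR, adjusted p = 0.063 to 0.087). Its log2 fold change stayed about as large in these fits, at −0.89 to −1.08.

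**Figure D3:**
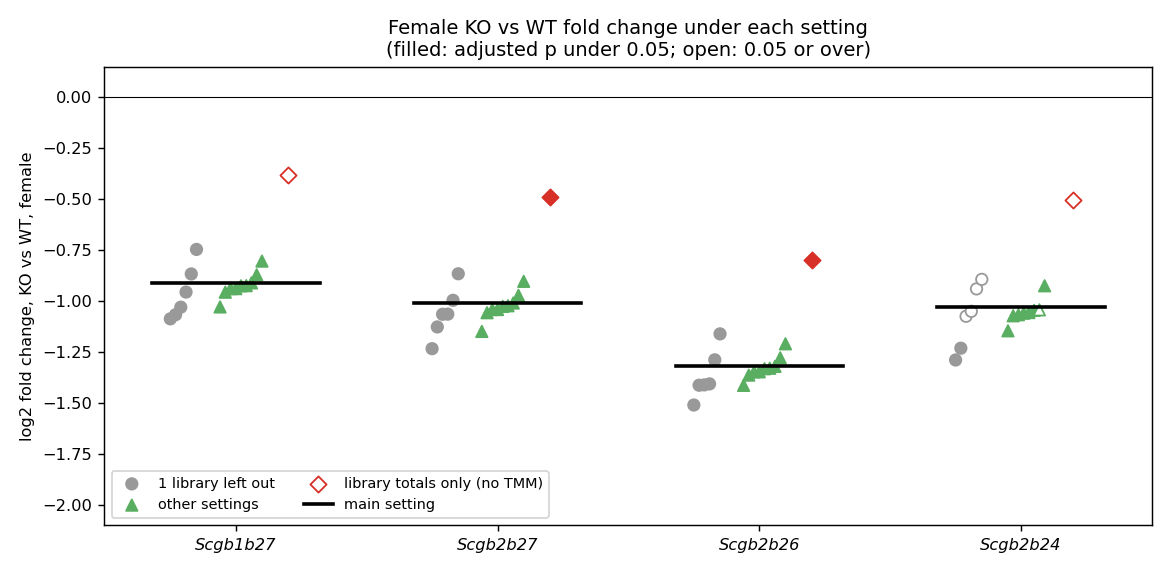
Log2 fold change of Pou2f3-/- against wild-type females for the 4 tested secretoglobins under each setting of the analysis. The black line is the main setting, grey circles leave out 1 library, green triangles are other settings, red diamonds use library totals without TMM, and open symbols have an adjusted p of 0.05 or over. All values lie below 0, and the library totals give the values nearest to 0 (−0.38 to −0.80).

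The level of acinar markers was also highest in wild-type females and lower in males, though not every marker was called. The summed level of the 10 serous acinar markers was 50137 to 58941 CPM in wild-type females, 30698 to 37727 CPM in Pou2f3-/- females, 11497 to 20192 CPM in wild-type males and 11299 to 14308 CPM in Pou2f3-/- males. Of these markers 4 of 10 were called lower in knockout females and 0 higher, where 19.3% of all tested genes were called lower, and in males against females 7 were lower and 1 higher in wild type and 7 lower and 2 higher in Pou2f3-/-, against 16.0% and 20.3% of all tested genes lower. Markers of the parotid or lacrimal gland, of which 3 of 7 (Scgb2b2, Obp1a and Lcn11) had at most 3 counts in every library, summed to 19947 to 25665, 10424 to 14116, 6989 to 9806 and 4717 to 7348 CPM in the same order of groups. That sum did not speak for the whole list. Of its 4 tested genes 1 was called lower and 0 higher in knockout females (median log2 fold change −0.06), and in males against females 1 was lower and 0 higher in wild type, where the median was 1.31, and 1 lower and 1 higher in Pou2f3-/-. The part of these markers in the secretoglobin differences was not tested, and in whole tissue fewer cells of a type and less RNA per cell cannot be told apart. The difference was as large without the female library with high sublingual markers, where Scgb2b26, Scgb2b27 and Scgb1b27 stood at −1.41, −1.07 and −1.07 (edgeR, adjusted p = 0.0045, 0.015 and 0.017). The wild-type female with the highest levels of the 3 abundant secretoglobins, replicate 3, also had the highest summed adipocyte markers of its group (49.0 CPM against at most 9.51 in the others). Without it the values were −1.16, −0.87 and −0.75 (edgeR, adjusted p = 0.0042, 0.014 and 0.037). Among Pou2f3-/- males the adipocyte markers went the other way. They summed to 40.5 and 21.7 CPM in replicates 2 and 3 and to 5.13 CPM in replicate 1, where the 3 abundant secretoglobins were highest in that group.

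In males none of the 5 genes that passed the filter in males was called between genotypes, where 0.235% of all tested genes were (0.101% higher and 0.134% lower in the knockout). The log2 fold changes were −0.44 ± 0.25 for Scgb1b27 (edgeR, adjusted p = 0.53), −0.35 ± 0.23 for Scgb2b27 (adjusted p = 0.61) and −0.42 ± 0.24 for Scgb2b26 (adjusted p = 0.53). They were 0.53 ± 0.42 for Crisp1 (adjusted p = 0.69) and 0.14 ± 0.37 for Crisp3 (adjusted p = 0.93). Scgb2b24, at 4 to 12 counts in males, had a fitted −0.12 ± 0.42 and is given without a test. None of the 5 had an unadjusted p under 0.05, and DESeq2 also called 0. Knockout and wild-type males overlapped for each of them.

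Whether the genotype difference itself differed between the sexes was tested as an interaction (female difference minus male difference). None of the 5 genes tested in both sexes was called, against 25.7% of all tested genes. The value was −0.90 ± 0.33 for Scgb2b26 (edgeR, adjusted p = 0.063), −0.66 ± 0.33 for Scgb2b27 (adjusted p = 0.14) and −0.47 ± 0.35 for Scgb1b27 (adjusted p = 0.33). Scgb2b24, with its low male counts, had a fitted −0.91 ± 0.54 and is given without a test. The interaction was −0.40 ± 0.64 for Crisp1 (adjusted p = 0.68) and −0.01 ± 0.53 for Crisp3 (adjusted p = 0.99). Of the 5 genes, 1 had an unadjusted p under 0.05 (Scgb2b26), and DESeq2 called 2, Scgb2b26 (−0.95, adjusted p = 0.0076) and Scgb2b27 (−0.71, adjusted p = 0.039). The same 2 genes were called by edgeR without wild-type female replicate 1 (−1.12 and −0.92, adjusted p = 0.020 and 0.030) and without wild-type male replicate 2 (−1.08 and −0.89, adjusted p = 0.028 and 0.037). On library totals without TMM the interaction was nearer to 0, at −0.30 for Scgb2b26 and −0.07 for Scgb2b27, with adjusted p of 0.44 and 0.85 (edgeR) and a median of 0.64 over all tested genes. A secretoglobin difference particular to females was therefore not established by the main test.

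The secretoglobins held most of the counts of these genes in females, and Crisp3 held the largest share of any of them in males. Scgb1b27, Scgb2b27 and Scgb2b26 together took 5.36% ± 0.71 of all counts in wild-type females (SD, n = 3), 3.75% ± 0.26 in Pou2f3-/- females, 2.56% ± 0.38 in wild-type males and 1.85% ± 0.45 in Pou2f3-/- males. Crisp1 and Crisp3 took 0.0430% ± 0.0114, 0.0662% ± 0.0317, 2.77% ± 0.60 and 2.94% ± 0.21 in the same order. The 7 genes together held 4.81 to 6.19% of the counts in wild-type females and 4.82 to 6.13% in wild-type males, ranges that overlap almost fully. In Pou2f3-/- they held 3.61 to 4.07% in females and 4.58 to 5.07% in males.

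**Figure D4:**
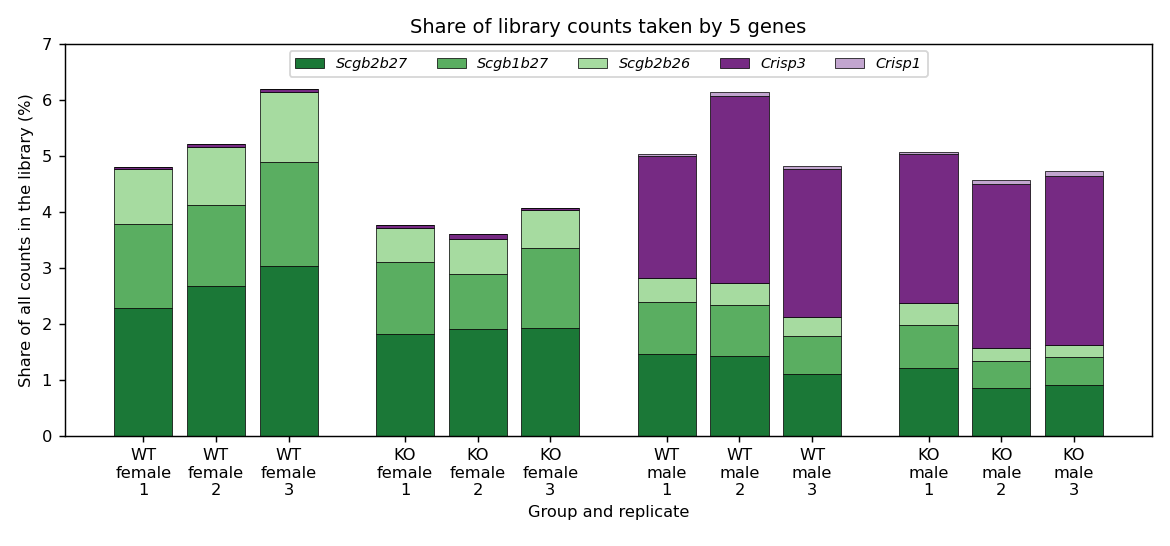
Share of all counts in each library taken by 5 of the genes, stacked (%, unscaled), by group and replicate. Crisp3 is the largest single part of the stack in every male library (2.18 to 3.34% of all counts) and is barely visible in females, where the 3 secretoglobins make up nearly all of it.

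Levels of different genes were compared per length, as CPM per kilobase of the canonical transcript. In wild-type females the order was Scgb2b27 (76665 ± 18025, SD, n = 3), Scgb1b27 (47822 ± 10807), Scgb2b26 (27864 ± 6261), Crisp3 (448 ± 143), Scgb2b24 (3.12 ± 0.60) and Crisp1 (0.932 ± 0.022). Scgb2b27 and Scgb1b27 overlapped in this group, and the other neighbours did not. In Pou2f3-/- females the order was the same, from 38030 ± 3456 for Scgb2b27 to 1.01 ± 0.46 for Crisp1, which overlapped with Scgb2b24 (1.53 ± 0.41). In wild-type males Scgb2b27 (20742 ± 5509), Crisp3 (15716 ± 6307) and Scgb1b27 (13647 ± 3883) overlapped with their neighbours, followed by Scgb2b26 (5343 ± 1160), Crisp1 (279 ± 153) and Scgb2b24 (0.265 ± 0.035). In Pou2f3-/- males Crisp3 (17281 ± 2088) and Scgb2b27 (16306 ± 2446) overlapped at the top. By CPM alone, Scgb2b27 was the gene with the 5th highest mean of the whole table in both female groups and Crisp3 held rank 6 in wild-type and 5 in Pou2f3-/- males. The order at the top depended on the transcript length used. With the longest annotated transcript of each gene Scgb1b27 was 1.09 to 1.19 times Scgb2b27. In wild-type females Scgb1b27 (27868) and Scgb2b26 (27864) then stood above Scgb2b27 (25162). In wild-type males Crisp3 (15716) then stood above Scgb1b27 (7952), Scgb2b27 (6808) and Scgb2b26 (5343).

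Ratios of 2 genes within a library do not depend on the scaling of libraries. Between Scgb2b27 and Scgb1b27, a possible pair of dimer subunits, the log2 ratio of counts was 0.73 ± 0.14 in wild-type females (SD, n = 3), 0.64 ± 0.28 in Pou2f3-/- females, 0.66 ± 0.03 in wild-type males and 0.77 ± 0.11 in Pou2f3-/- males. Males and females differed by 0.03 over both genotypes (exact permutation test within genotype, two-sided, p = 0.76). The groups overlapped in this ratio, although the levels of both genes were separate between the sexes.

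The ratio of Scgb2b26 to the other abundant secretoglobins was lower in wild-type males than in wild-type females. Its log2 ratio to Scgb1b27 was −0.59, −0.49 and −0.56 in wild-type females, −1.12, −0.67 and −1.06 in Pou2f3-/- females, −1.08, −1.21 and −1.03 in wild-type males, and finally −1.03, −0.99 and −1.31 in Pou2f3-/- males. Wild-type females were highest, with no overlap with any other group. The male-minus-female difference was −0.36 over both genotypes (exact permutation test, p = 0.03, adjusted over the 5 ratios 0.038). It was −0.56 in wild type (exact p = 0.1, the smallest that 3 against 3 mice allow) and −0.16 in Pou2f3-/-, where the sexes overlapped (exact p = 0.6). The exact permutation p was 0.05 without Pou2f3-/- female replicate 2 (−0.29) or without Pou2f3-/- male replicate 3 (−0.31). The log2 ratio of Scgb2b27 to Scgb2b26 was 1.28 ± 0.09 in wild-type females, 1.59 ± 0.07 in Pou2f3-/- females, 1.77 ± 0.07 in wild-type males and 1.88 ± 0.24 in Pou2f3-/- males, and it was higher in males by 0.39 over both genotypes, 0.49 in wild type and 0.29 in Pou2f3-/- (exact permutation test, p = 0.005, the smallest this design allows, adjusted p = 0.0083). In females the genotypes did not overlap in either ratio with Scgb2b26, with differences of −0.40 and 0.31, but 3 against 3 mice cannot go below the exact p = 0.1 found for both.

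The log2 ratio of Crisp1 to Crisp3 was −8.84 ± 0.51 in wild-type females, −8.87 ± 0.27 in Pou2f3-/- females, −5.89 ± 0.27 in wild-type males and −5.57 ± 0.69 in Pou2f3-/- males. Crisp1 therefore rose more than Crisp3 in males, by 3.12 on the log2 scale (exact permutation test, p = 0.005, adjusted p = 0.0083). No value is given for the ratio of Scgb2b24 to Scgb1b24, since Scgb1b24 was at 0 in most libraries.

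**Figure D5:**
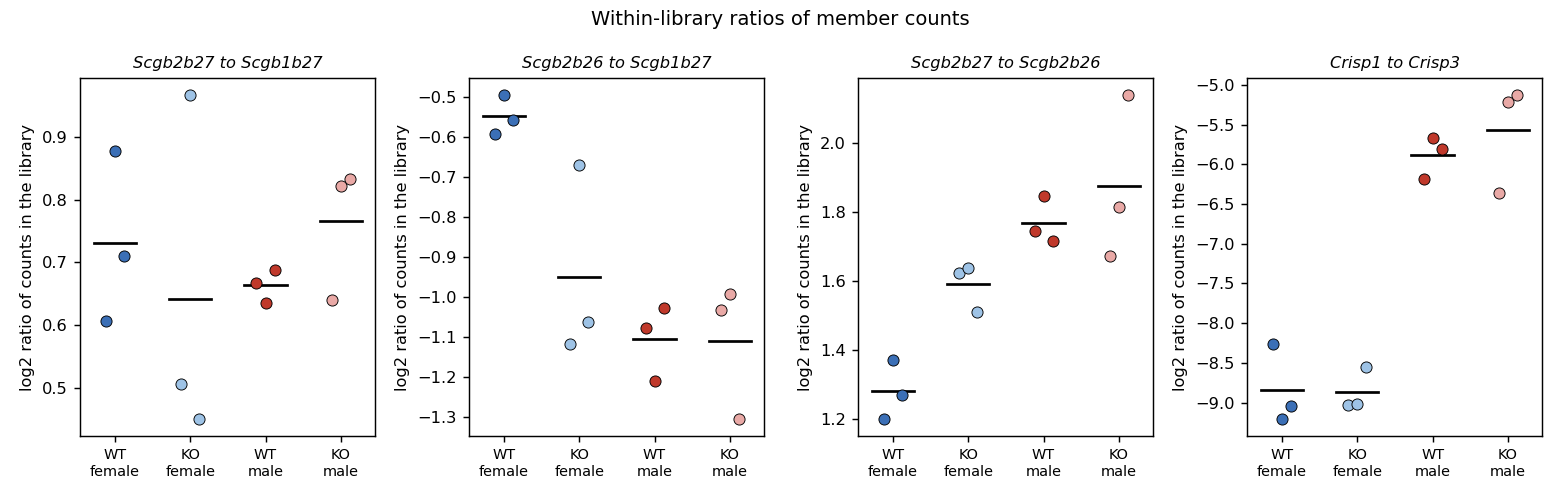
Log2 ratio of counts (each with 0.5 added) between pairs of the genes in each library, by group. Points are single mice, bars are group means, each panel has its own axis, and KO stands for Pou2f3-/-. Scgb2b27 to Scgb1b27 overlaps between all groups, the ratios with Scgb2b26 set wild-type females apart, and Crisp1 to Crisp3 sets the sexes apart (−8.84 against −5.89 in wild type).

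Granular convoluted tubule markers moved with the Crisp genes. Their summed level (9 genes, among them Egf, Ren1 and kallikreins) was 942 to 1721 CPM in wild-type females, 973 to 2531 CPM in Pou2f3-/- females, 72007 to 131972 CPM in wild-type males and 93025 to 129608 CPM in Pou2f3-/- males. All 9 were called higher in males in both genotypes, where 20.5% of all tested genes were in wild type and 23.2% in Pou2f3-/-, and the part of these cells in the Crisp differences was not tested. Summed myoepithelial markers (6 genes) were also higher in males, at 441 to 529 CPM against 164 to 222 CPM in wild type and 346 to 484 CPM against 136 to 155 CPM in Pou2f3-/-. The highest Crisp1 and Crisp3 levels among wild-type males and among Pou2f3-/- females were in replicate 2 of each group, which also had the highest summed tubule markers of its group, and among Pou2f3-/- males all of these were highest in replicate 3. In wild-type females the tubule markers and Crisp3 were highest in replicate 2 but Crisp1 was nearly level, at 1.30 to 1.36 CPM.

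The genes whose log2 levels followed each member most closely over the 12 libraries were looked up as a description, the libraries sharing sex and genotype. For Scgb1b27, Scgb2b27 and Scgb2b26 the first was Mucl2, a salivary mucin-like protein gene (Pearson r = 0.990, 0.996 and 0.995), followed by Car6, the secreted carbonic anhydrase of saliva, and Dpp4 for Scgb1b27, Slc4a7 and Slc6a14 for Scgb2b27, and Fam174b and Gjb1 for Scgb2b26. For Scgb2b24 they were Gramd2b, Slc2a13 and Engase (r = 0.980 to 0.982). For Crisp1 they were Klk1b27, Slc35b4 and Trim16 (r = 0.996 to 0.998), and for Crisp3 they were the kallikrein genes Klk1b22, Klk1b3 and Klk1b11 (r = 0.998 to 0.999). Among the members themselves, deviations from the group means correlated at 0.85 to 0.89 between the 3 abundant secretoglobins and at 0.71 between Crisp1 and Crisp3.

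The rest of the secretoglobin family was nearly absent from this gland. Of 62 other genes with an Scgb symbol, 59 had at most 3 counts in every library. Among them was Scgb1a1, the secretoglobin of airway club cells. Scgb1c1 was the only one tested, with 55 to 167 counts, and it was called in none of the comparisons. The pseudogene Scgb1b26-ps, which shares 31 words with Scgb1b27, had 1 to 16 counts, and Scgb2b7 had 0 to 6.

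Of 13 other genes of the CAP superfamily, 6 had at most 3 counts in every library, Crisp4 among them, and 6 were tested. In males against females 1 was higher and 1 lower in wild type and 2 were higher in Pou2f3-/-, near the 36.5% and 43.5% of all tested genes called there. Crispld1, which encodes another secreted CAP protein, was 2.09 ± 0.47 CPM in wild-type females and 8.05 ± 1.41 CPM in wild-type males (log2 fold change 1.94 ± 0.29, edgeR, adjusted p = 2.2e-04), and 2.22 ± 1.12 and 9.73 ± 1.11 CPM in Pou2f3-/- (2.12 ± 0.29, adjusted p = 9.1e-05). None of the 6 was called between genotypes in either sex (36.9% of all tested genes were in females and 0.235% in males).

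Among 26 genes of steroid metabolism and of cofactors of steroid signalling, 17 were tested. Males were higher for 5 and lower for 6 in wild type, and higher for 8 and lower for 3 in Pou2f3-/-, while 5 were lower and 0 higher in knockout than in wild-type females. The counts between the sexes take in Hsd17b3, higher in males of both genotypes, and Akr1c18, lower in wild-type males. Hsd17b3 had 0 to 1 counts in females and Akr1c18 had 1 to 4 in wild-type males. Each entered the test through the other sex only, so that their calls are not read as tests. Of all tested genes, 20.5% were higher and 16.0% lower in wild-type males, and 23.2% and 20.3% in Pou2f3-/- males. In knockout females 19.3% were lower and 17.6% higher. The list was chosen with earlier results of these data known, and its counts were not tested against these shares. Fkbp5, which encodes a co-chaperone of steroid receptors, was 19.9 ± 2.6 CPM in wild-type females and 110.0 ± 22.7 CPM in wild-type males (2.46 ± 0.22, edgeR, adjusted p = 3.0e-06), and 13.9 ± 2.5 and 99.1 ± 29.6 CPM in Pou2f3-/- (2.83 ± 0.23, adjusted p = 1.3e-06). Akr1c14, an enzyme that reduces ketosteroids, was lower in males by −1.14 ± 0.27 in wild type and −1.12 ± 0.27 in Pou2f3-/- (adjusted p = 0.0054 and 0.0051). Sts, the steroid sulfatase, was higher in males by 1.29 ± 0.31 and 0.90 ± 0.30 (adjusted p = 0.0062 and 0.029). Hsd17b3, which makes testosterone from androstenedione, had a mean of 0.477 CPM in wild-type and 0.473 CPM in Pou2f3-/- males and was at or near 0 in females.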

How the data were processed

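Total RNA of whole SMGs was made into stranded libraries after removal of ribosomal RNA (the labels name the molecule as polyA RNA) and sequenced as paired reads by the authors. Reads were assigned to transcripts with Salmon 1.10.1, and the builds named are GRCm39 and mm39. The authors deposited a table of estimated counts per gene and a table of normalized counts (unit signal), which was used only for its size factors. After rounding, the estimated counts entered edgeR 4.0.16 under R 4.3.3: filterByExpr, TMM, 1 mean per group over all 12 libraries, glmQLFit and glmQLFTest, Benjamini-Hochberg over 17893 genes, with a call at an adjusted p under 0.05. The procedure was tested on simulated data. The SE was obtained from the fold change and F. Fold changes and folds derive from these log2 values. Each library was one mouse, grouped by its label. Log2 ratios within a library used counts plus 0.5 and an exact permutation test, two-sided (for the sexes, labels were exchanged within genotype, 400 arrangements). Positions came from Gencode M39 (55563 of 56065 identifiers matched) and promoter windows from RefSeq, which held a window for each of the 7 genes. Marker and pathway lists and the 7 genes were chosen with earlier results of these data known. Named were all 7 genes, the 3 genes most like each, and genes of the lists with an adjusted p under 0.05 and an absolute log2 fold change of at least 1, at most 6 a list. A gene in each of 2 lists is not reported here and was left out of their counts and sums. Alternatives were RLE, upper-quartile and no factors, other filters, DESeq2 1.42.0, only the groups compared, a replicate block, leaving out each library, and the authors' factors.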

Additional observations from a re-analysis of the deposited data

Results flagged for a closer look

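For 2 named genes of the related lists the difference between genotypes was compared between the 2 sexes (interaction of sex and genotype, edgeR's quasi-likelihood test, female difference minus male difference). For the interaction 1 of the 6 tested CAP genes and 4 of the 17 tested genes of steroid metabolism and cofactors were called, against 25.7% of all tested genes, so that such calls were common. Akr1c18, an enzyme of progesterone breakdown, had a fitted value of −3.44 ± 0.75, from 0.680 to 0.215 CPM in females and from 0.0367 to 0.133 CPM in males. With 1 to 11 counts in the male libraries it entered the test by its level in females, so that no p is given for it. It is among the 4 genes of steroid metabolism and cofactors counted above, and its call there is not read as a test. Glipr2, a CAP gene, had −1.80 ± 0.61 (adjusted p = 0.047), from 1.37 to 1.54 CPM in females and from 0.557 to 2.18 CPM in males. The Pou2f3-/- males were spread widely, at 0.952, 3.34 and 2.26 CPM. Between male genotypes Glipr2 was not called (edgeR, adjusted p = 0.11). The cause was not tested in either of them.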

How the results depend on the processing

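The number of the 7 genes called was 5 between the sexes in each genotype (leaving out Scgb2b24, which passed the filter through females only), 4 between female genotypes and 0 between male genotypes. Library totals in place of TMM lowered the female count to 2, and which scaling suits these libraries better was not tested. The interaction, at 0 in the main setting, was called for 1 gene without the 20 most abundant genes in the library sizes, for 1 gene without the low-count filter and for 2 genes with DESeq2. With 1 library left out it was called for 0 to 2 genes, and the female comparison for 3 to 4. Without the low-count filter Scgb2b24 missed the threshold between female genotypes (−1.04, edgeR, adjusted p = 0.053). It was not tested when 10 counts were required in every library. Of the log2 fold changes under alternative settings, 471 kept their direction and side of the threshold, 8 passed it, 7 missed it and 18 changed sign, none of the last being called in either. With the size factors of the authors' normalized table, an alternative chosen after seeing the data, Crisp1 and Crisp3 stood at −0.044 and −0.0032 between female genotypes, and with library totals at 0.60 and 0.62 (edgeR, adjusted p = 0.23 and 0.099). With library totals the interaction was 0.13 for Scgb1b27, 0.13 for Crisp1 and 0.55 for Crisp3, and the fitted value of Scgb2b24 was −0.26. With upper-quartile factors it was 0.064 for Crisp3. Leaving out 1 library gave −0.36 to 0.30 for Crisp1 and −0.47 to 0.32 for Crisp3 between female genotypes. Between male genotypes it gave −0.39 to 0.20 for Scgb2b24, −0.079 to 0.51 for Crisp3 and 0.22 to 1.04 for Crisp1. There Scgb1b27 ran from −0.63 to −0.20, Scgb2b27 from −0.51 to −0.12 and Scgb2b26 from −0.66 to −0.24, with 0 genes called. The Crisp3 interaction ran from −0.65 to 0.20 with 1 library left out. The male-minus-female log2 ratio of Scgb2b27 to Scgb1b27 then ran from −0.020 to 0.11, and that of Scgb2b26 to Scgb1b27 from −0.40 to −0.29. Median log2 fold changes of all genes beyond 0.1 in either direction occurred with library totals and with upper-quartile factors. The latter gave 0.13 between female genotypes, −0.18 between the sexes in Pou2f3-/- and 0.105 for the interaction. Without the low-count filter the median was 0.18 for the interaction. Equal replicate numbers did not pair the mice: deviations from the group means of same-numbered libraries correlated at −0.13 to 0.09 between genotypes and −0.06 to 0.27 between sexes. With the replicate number as a block the counts of genes called were 4 between female genotypes, 0 between male genotypes, 5 between the sexes in each genotype (again without Scgb2b24) and 0 for the interaction, and no call of these genes changed. Depth limits only Scgb1b24, Scgb2b24 and female Crisp1.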

Other observations

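By deviations from the group means over the 12 libraries, Scgb2b26 was followed most closely by Actl6a (Pearson r = 0.978), Mucl2 (r = 0.978) and Rcn1 (r = 0.977), and Crisp3 by Pex13 (r = 0.973), Klk1b3 (r = 0.970) and Klk1b11 (r = 0.965). For Scgb1b27 the first was Nup107 (r = 0.962), for Scgb2b27 Cldn34c1 (r = 0.968), for Scgb2b24 Kdm4a (r = 0.941) and for Crisp1 Slc35b4 (r = 0.987). Mucl2, Klk1b3, Klk1b11 and Slc35b4 were thus among the first 3 both across and within groups. These values are descriptions over few libraries and carry no test.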
